A study of Mus musculus with 4 samples.

Results

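Calpains are mainly calcium-dependent cysteine proteases of the cytosol, and calpastatin is the protein that inhibits the conventional ones, calpain 1 and calpain 2. The set described here holds 9 genes, Capns1, Capn1, Capn2, Capn3, Capn5, Capn6, Capn7, Capn10 and Cast, taken by gene symbol, case ignored, from the annotation of the array's probes. They are 9 of 17734 named genes and were read by 11 of 26423 probes, with 2 probes each for Capn2 and Capn3 and 1 for each of the other 7 genes. The family was picked because Capns1 was among the largest decreases with berberine (the 10 lowest changes of all probes include it), so its change is given as a description with no test. The other members entered by name.

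The cells were 3T3-L1, mouse preadipocytes that become lipid-laden adipocytes after hormonal induction. All 4 samples, control and berberine alike, were induced for 48 hours in medium with serum, with insulin at 1 µg/ml, dexamethasone at 1 µM and isobutylmethylxanthine, an inhibitor of phosphodiesterases, at 0.5 mM. The 2 berberine samples also had 13.47 µM berberine, a plant alkaloid, and the 2 control samples did not. The line is kept in culture as a model of adipogenesis, and since no label states that replicates were grown apart, the p-values cover the spread among the 4 arrays and no more, a spread that may be technical.

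The conventional calpains, calpain 1 and calpain 2, are heterodimers. Each pairs its own catalytic subunit, encoded by Capn1 or Capn2, with a common small regulatory subunit encoded by Capns1, which stabilises the protease. Both subunits have a penta-EF-hand domain that binds calcium. Calcium binding activates the enzyme for limited cleavage of cytoskeletal, adhesion and signalling proteins, and calpastatin blocks this activity. In preadipocytes, calpain activity has been linked to the early, mitotic phase of adipogenesis and to the turnover of the cell cycle inhibitor p27, encoded by Cdkn1b.

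Values are log2 intensities after quantile normalization, which gives all arrays the same distribution, and changes are berberine minus control. A probe was called when its adjusted p from limma was under 0.05. Of 26408 probes fitted, 44.8% were called, 27.1% higher and 17.7% lower. Without any scaling, in the deposited values, these shares were 9.07% and 16.2%. They were 40.5% and 12.5% after centring each array on its median, and 21.1% and 14% with arrays scaled on the 75th percentile. Over all probes the median change was 0.17, and it was -0.048, 0.52 and 0.26 under those scalings, so small changes have to be read against that shift. The median deposited intensity ran from 237 to 423 over the 4 arrays. In the check of the cell type, adipocyte genes ranged widely in control, where the 10 markers had means from 4.93 to 17.59. The hormone Adipoq read 17.56 and 17.47 in control, and the fatty acid binding protein Fabp4 read 17.55 and 17.63. With berberine Adipoq fell to 10.52 and 10.57 (adjusted p = 5.77e-05), Fabp4 fell 7.06-fold and the adipogenic factor Cebpa 6.73-fold. The preadipocyte marker Dlk1 fell 3.09-fold at the brighter of its 2 probes, and the other is not shown. Of 10 adipocyte markers 6 were called lower and 2 higher (Slc2a4, the insulin-responsive glucose transporter, 1.49-fold, and Pparg), and of 7 preadipocyte and fibroblast markers 4 were called lower and 3 higher (Col1a1 2.81-fold, Pdgfrb 2.06-fold and Col1a2 1.51-fold). Among these higher calls, that of Col1a1 held under every alternative run, and those of Slc2a4 (adjusted p = 0.121 and 0.103), Pdgfrb (0.130 and 0.0926) and Col1a2 (0.218 and 0.185) were lost without berberine replicate 1 and 2. Slc2a4 and Col1a2 did not pass in the deposited values either (adjusted p = 0.866 and 0.0971), nor did Slc2a4 with 75th percentile scaling (0.162) or Col1a2 without control replicate 2 (0.0684). The probes of Pparg and of Lpl, another adipocyte marker, lay under the floor in both groups. The higher call of Pparg was lost in the deposited values too (adjusted p = 0.123). The floor is a log2 value of 6.58, at the 25th percentile of an array, below which no fold is given. Among markers of other cell types, 2 of 4 skeletal muscle, 1 of 6 macrophage and 2 of 4 endothelial genes were called higher, while 2 macrophage genes and 1 of 3 epithelial genes were called lower.

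Among the conventional calpains, the readings of the small subunit Capns1 and the catalytic subunit Capn1 were lower with berberine, and Capn2 gave a large decrease at 1 probe and none at the other. The brighter Capn3 probe was called lower, Capn5 and Capn6 were called higher, 1.35-fold and 1.41-fold, and Capn7, Capn10 and Cast did not pass. Of the 10 member probes other than Capns1, 3 were called lower and 2 higher, against the 17.7% and 27.1% of all probes, and 5 did not pass. Nothing is read from these counts, since the family was picked on the same contrast. The median change of the 11 probes was 0.29, against 0.17 for all probes. In 9 of 11 probes the groups did not overlap, 5 higher and 4 lower with berberine, which was the case for 74.8% of all probes. Of the 9 members, all had at least 1 probe above the floor in either group.

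**Figure D1:**
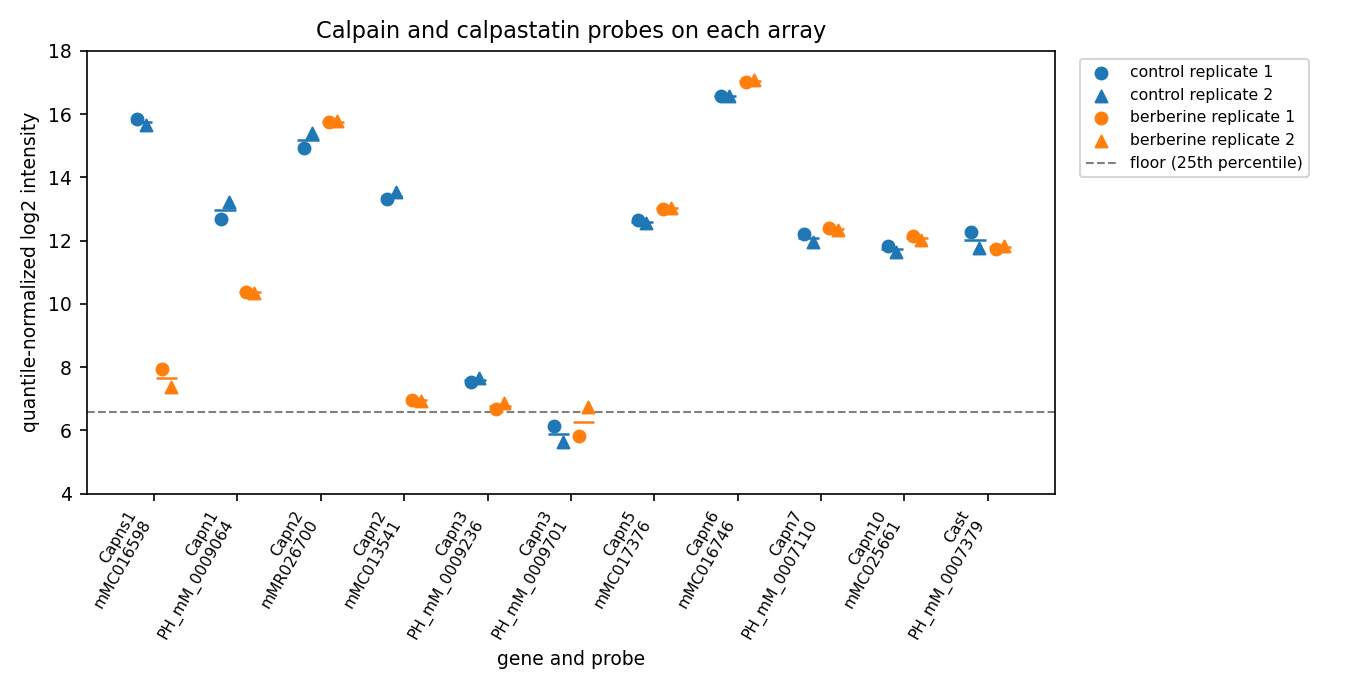
Quantile-normalized log2 intensity (y axis) of the 11 calpain and calpastatin probes (x axis), with a point for each of the 2 control and 2 berberine arrays and a short line at each group's mean. The Capns1 points drop from above 15 to below 8, the points of probe mMC013541 of Capn2 drop from above 13 to about 7, and the other Capn2 probe stays above 14; heights of different probes cannot be compared.

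The upstream windows of the genes for the conventional calpain subunits are shown because the large decreases were read at their probes, for Capn2 at 1 of its 2 probes. RefSeq (GRCm38.p6) windows were matched by symbol for 8 of the 9 members, and the 250 bases before the start of transcription are printed on the strand of the gene. The intervals are chr7:30195154-30195403 for Capns1, chr19:6015826-6016075 for Capn1 (the first of its 2 start sites in the table) and chr1:182517611-182517860 for Capn2, all on the minus strand. Capitals mark matches, on either strand, to CCAAT (the CCAAT box), GGGCGG (the GC box), TATAAA (the TATA box) and TTGCNNAA (a C/EBP-type core).
Capns1: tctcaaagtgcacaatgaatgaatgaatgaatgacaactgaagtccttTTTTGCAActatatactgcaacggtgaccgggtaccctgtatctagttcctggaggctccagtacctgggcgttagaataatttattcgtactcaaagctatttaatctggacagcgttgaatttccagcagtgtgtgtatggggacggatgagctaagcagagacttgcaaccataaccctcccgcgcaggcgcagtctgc
Capn1: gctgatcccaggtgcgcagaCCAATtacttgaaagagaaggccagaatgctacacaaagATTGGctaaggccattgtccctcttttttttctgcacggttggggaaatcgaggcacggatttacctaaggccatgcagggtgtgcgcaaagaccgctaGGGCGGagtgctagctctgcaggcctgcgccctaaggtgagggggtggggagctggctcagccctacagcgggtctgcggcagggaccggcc
Capn2: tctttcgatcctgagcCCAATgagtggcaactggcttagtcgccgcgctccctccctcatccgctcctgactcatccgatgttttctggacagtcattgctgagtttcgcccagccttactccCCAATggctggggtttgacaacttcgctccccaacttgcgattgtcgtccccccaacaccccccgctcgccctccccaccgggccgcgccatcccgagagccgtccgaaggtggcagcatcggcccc
The windows differ in composition, with 46.4% G and C for Capns1, 58.8% for Capn1 and 62.8% for Capn2, against a median of 52.4% over 32851 windows. CCAAT was found in the Capn1 and Capn2 windows, 2 times in each, and not in that of Capns1, and 33.8% of all windows hold it. GGGCGG occurred 1 time in the Capn1 window alone of the 3, against 32.7% of all windows, and TATAAA in none of them, against 12.4%. TTGCNNAA matched 1 time, in the Capns1 window, against 9.56% of all windows. The matched letters overlap no other motif searched in these windows. A match describes the letters only, and no binding was measured.

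Capns1 showed the widest separation of the members. Its deposited intensities were 60638 and 42776 in control and 187 and 158 with berberine. After normalization these were 15.84 and 15.66 against 7.94 and 7.37, so both berberine arrays lay far below both controls. Group means were 15.75 ± 0.12 for control and 7.65 ± 0.41 for berberine (SD, n = 2 each), a change of -8.10 on the log2 scale or 274-fold. Within each array, which needs no scaling between arrays, the probe ranked at the 98.9th and 98.7th percentile of all probes in control and at the 45.7th and 37.6th with berberine. The berberine readings thus lay in the lower part of the arrays but above the floor. The change was -8.21 without scaling, -7.65 with centred arrays and -7.90 with the 75th percentile as reference. Since whole cultures were measured, fewer cells with this RNA and less RNA per cell cannot be told apart. The gene has no second probe here against which the reading could be set.

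Capn1, the catalytic subunit of calpain 1, fell at its single probe. It read 12.68 and 13.22 in control and 10.36 and 10.36 with berberine, and the groups did not overlap. The change was -2.59 (SE 0.21, 95% interval -3.14 to -2.05, adjusted p = 0.000945), a 6.04-fold fall. The probe ranked at the 86.0th and 89.6th percentile of the control arrays and at the 68.8th of both berberine arrays. The change ranged from -2.80 in the deposited values to -2.24 after centring and passed under both scalings.

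Capn2, the catalytic subunit of calpain 2, was read by 2 probes that did not move together. Probe mMC013541 read 13.31 and 13.52 in control and 6.97 and 6.94 with berberine, an 88.1-fold fall (change -6.46, SE 0.14, 95% interval -6.81 to -6.11, adjusted p = 5.77e-05). Its deposited intensities were 11142 and 9863 against 100 and 122. Probe mMR026700 read 14.92 and 15.41 in control and 15.73 and 15.77 with berberine, so here both berberine arrays lay above both controls. Its change of 0.58 (SE 0.20, 95% interval 0.075 to 1.09) did not pass (adjusted p = 0.0656). It passed without scaling (change 0.78, adjusted p = 0.0497), after centring (1.34, adjusted p = 0.00549), at the 75th percentile scaling (1.08, adjusted p = 0.0183), with the replicate number as a block (adjusted p = 0.0233) and without control replicate 2 (adjusted p = 0.0224). The changes at the probes of this gene differ by 7.05 on the log2 scale. The file and annotation give no probe sequence, so which transcripts or exons each probe reads is not known, and the level of Capn2 RNA with berberine is not settled by these arrays.

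Such disagreement was not particular to Capn2. Of 524 genes with at least 2 probes above a log2 value of 10 in control, 115 had a probe that was at least 8-fold lower, and in 52 of these the highest of the other probes had a change above 0, called higher in 26. In 33 the highest probe was at least 2-fold lower as well. Capn2 is among the 52, and 16 of the 115 genes, Capn2 itself included, had a decrease at least as large as that of its lower probe. These counts were made after the Capn2 values were seen. At least 8-fold decreases were found at 7.38% of all probes above log2 10 in control, and at 9.91%, 5.85% and 5.22% of those whose identifier starts with mMC, PH_mM and mMR. The Capns1 probe and the falling Capn2 probe are of the first kind and the other Capn2 probe of the last. The Capn5, Capn6 and Capn10 probes, which did not decrease, are of the first kind too. The part that the kind of probe plays in these readings was not tested.

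**Figure D2:**
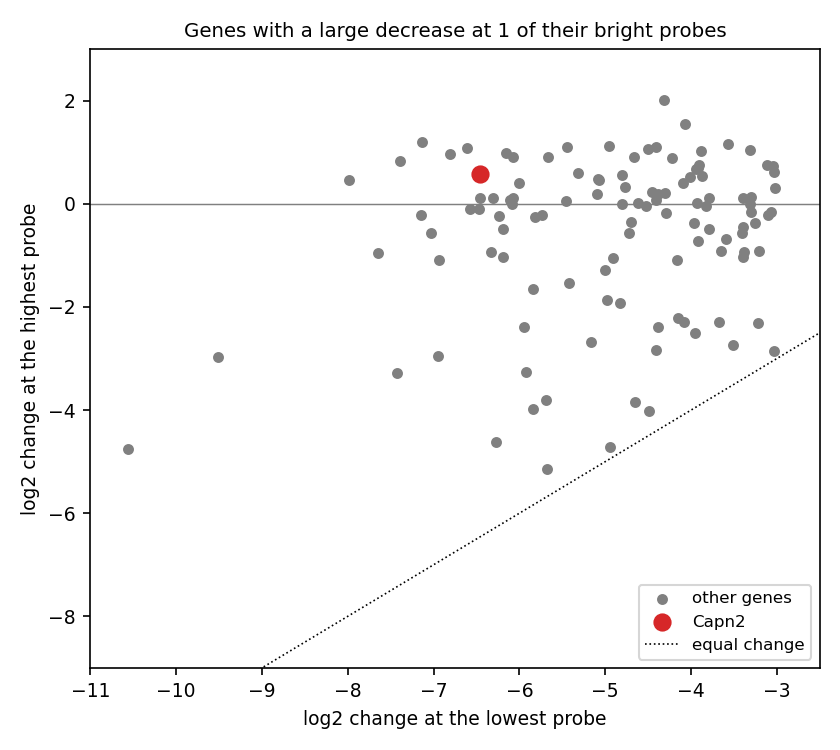
Log2 change (berberine minus control) at the lowest probe (x axis) and at the highest probe (y axis) of the 115 genes with at least 2 probes above log2 10 in control and a probe at least 8-fold lower; each point is a gene and the dotted line marks equal change. Capn2 (red) sits at -6.46 and 0.58, and 52 of the 115 genes lie above 0 on the y axis.

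Capn3, the calpain of skeletal muscle, was dim in these cells. Its brighter probe, PH_mM_0009236, read 7.52 and 7.65 in control and 6.66 and 6.86 with berberine and fell 1.77-fold (change -0.83, SE 0.14, adjusted p = 0.00875). The call was lost without berberine replicate 1 (adjusted p = 0.0879) and without berberine replicate 2 (adjusted p = 0.0580). The other probe, PH_mM_0009701, read 6.12 and 5.62 against 5.81 and 6.73, with overlapping groups and means under the floor, so no fold is given for it. Of the 4 muscle markers measured, creatine kinase Ckm lay under the floor in both groups. Acta1, a muscle actin, read 7.47 and 7.24 in control and 7.39 and 7.47 with berberine and did not pass (adjusted p = 0.707). Desmin (Des) and the troponin Tnnt3 were called higher, 1.82-fold and 1.89-fold. Neither passed in the deposited values (adjusted p = 0.497 and 0.390), with 75th percentile scaling (0.0691 and 0.0636), without berberine replicate 1 (0.154 and 0.0742) or without berberine replicate 2 (0.151 and 0.0540). The summed level of the 4 muscle markers was 10.46 to 10.75 on log2 in control and 11.37 to 11.39 with berberine. In this sum the brightest probes, those of Des and Tnnt3, weigh most. The part of muscle-like expression in the Capn3 reading was not tested.

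Capn5, Capn6, Capn7 and Capn10 had small, positive changes, of which those of Capn5 and Capn6 passed. Capn6, which lacks the catalytic cysteine and is known for binding microtubules, read 16.56 and 16.57 in control and 17.02 and 17.09 with berberine, a 1.41-fold rise (change 0.49, SE 0.12, adjusted p = 0.0259). Capn5, a calpain without a penta-EF-hand domain, read 12.64 and 12.54 against 13.01 and 13.04 and rose 1.35-fold (change 0.43, SE 0.12, adjusted p = 0.0399). In both genes the berberine arrays lay above the controls, and relative to the median of all probes the changes were 0.32 and 0.27. Neither call held in the deposited values (adjusted p = 0.169 for Capn6 and 0.196 for Capn5), without berberine replicate 1 (0.133 and 0.177) or without berberine replicate 2 (0.154 and 0.187). That of Capn5 was also lost without control replicate 2 (adjusted p = 0.0668) and with the replicate number as a block (adjusted p = 0.0739).

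Capn10, a gene studied for its association with type 2 diabetes, read 11.84 and 11.63 in control and 12.13 and 12.01 with berberine. Its change of 0.34 (95% interval -0.024 to 0.70) did not pass (adjusted p = 0.110). Capn7, a calpain with domains that bind the endosomal sorting machinery, read 12.19 and 11.95 against 12.40 and 12.32, a change of 0.29 (95% interval -0.082 to 0.66, adjusted p = 0.163). For both genes the groups did not overlap, but the gap between them was smaller than the difference between the control arrays. After centring both passed (changes 0.81 and 0.85, adjusted p = 0.0195 and 0.0185), where the median of all probes was itself at 0.52.

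Calpastatin, the inhibitor encoded by Cast, showed no change that passed. It read 12.28 and 11.77 in control and 11.73 and 11.84 with berberine, so the groups overlapped. The change was -0.24 (SE 0.20, 95% interval -0.77 to 0.29, adjusted p = 0.383), and its sign turned after centring (0.24) and without control replicate 1 (0.015). The interval leaves room for a change as low as -0.77 or as high as 0.29, and a miss does not show that the levels were equal.

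**Figure D3:**
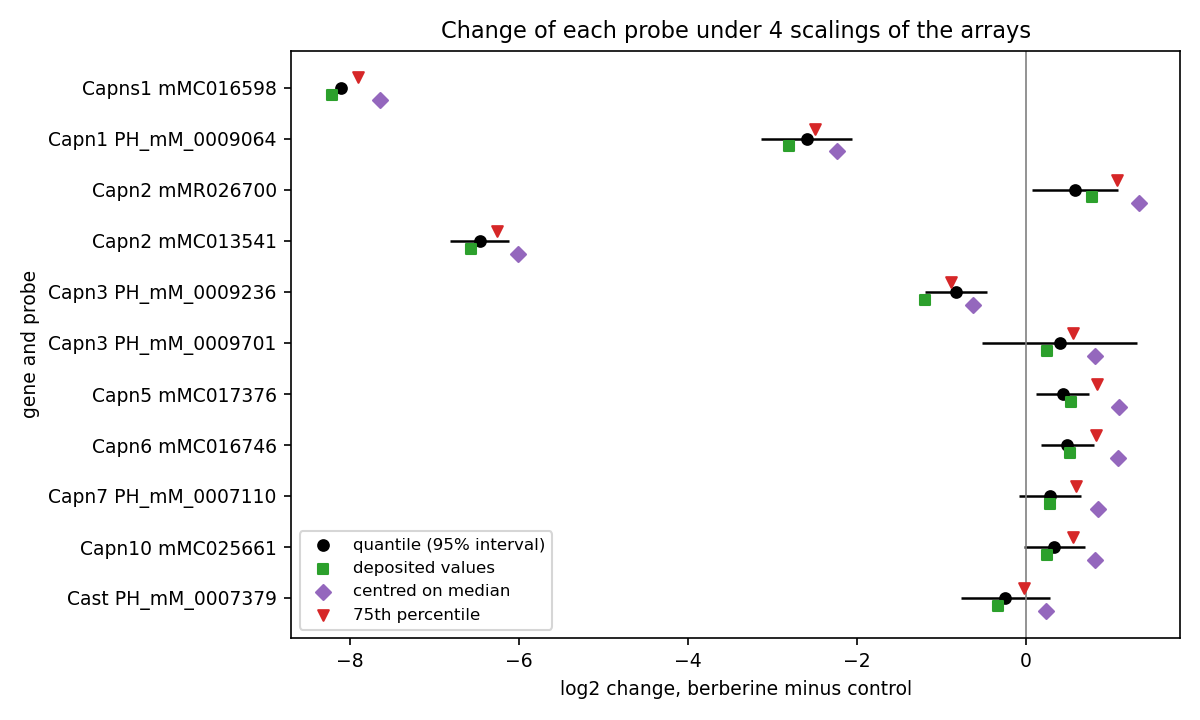
Log2 change of each member probe (x axis, berberine minus control) by gene and probe (y axis); black points are quantile-normalized values with their 95% interval from limma, with none for Capns1, and coloured points are the deposited values and 2 other scalings. Capns1, Capn1 and the lower Capn2 probe lie left of -2 under each of the 4 scalings, the brighter Capn3 probe lies between -1.19 and -0.62, and the other probes lie near or right of 0.

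The 7 other calpain genes on the array, read by 8 probes, were dim, and 4 of these probes lay under the floor in both groups. Capns2, the second gene for a small subunit, was among them, at 6.40 and 6.49 in control and 6.35 and 5.83 with berberine, so no fold is given. Capn11 read 8.16 and 8.22 in control and 9.29 and 9.16 with berberine and rose 2.05-fold (adjusted p = 0.00306), a call lost without scaling (adjusted p = 0.240) and when berberine replicate 1 was left out (0.0517). Capn9 read 6.89 and 6.94 against 6.29 and 6.18 and fell at least 1.26-fold, to under the floor (adjusted p = 0.0106), a call lost after centring (adjusted p = 0.110), with 75th percentile scaling (0.0725) and when berberine replicate 1 (0.0781) or 2 (0.0960) was left out. By 1 probe per gene, 1 of the 7 was called higher and 1 lower, with a median change of -0.17, against 30% and 18.2% of all named genes and their median of 0.20. The brighter Capn8 probe read 7.84 and 7.91 against 7.76 and 7.59 and did not pass (adjusted p = 0.261).

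The penta-EF-hand family, which shares its calcium-binding fold with Capns1, also holds proteins that are not calpains. Of the 4 of these listed here, 1 rose and 1 fell, with a median change of -0.26. Over all named genes 30% were called higher and 18.2% lower, with a median of 0.20. Pef1, or peflin, read 12.34 and 12.60 in control and 11.17 and 11.35 with berberine, a 2.31-fold fall (adjusted p = 0.00365) that did not pass when berberine replicate 1 was left out (adjusted p = 0.0567). Gca, or grancalcin, rose from under the floor, at 6.25 and 6.17, to 7.29 and 7.28, at least 1.62-fold (adjusted p = 0.00245), and did not pass in the deposited values (adjusted p = 0.0642). Pdcd6, the cell death-associated protein ALG-2, had a change of -0.44 (adjusted p = 0.0669), which passed without control replicate 1 (adjusted p = 0.0410) and turned to 0.32 after centring and 0.059 with 75th percentile scaling. Sri, or sorcin, a regulator of calcium release, read 13.76 and 13.92 against 13.67 and 13.87, with overlapping groups (adjusted p = 0.725). It was higher and passed after centring (change 0.66, adjusted p = 0.0184).

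Genes for proteins that calpains are known to cleave went both ways in their RNA. Neither the proteins nor their cleavage were measured. Of 27 adhesion and cytoskeleton substrates measured, 11 rose, 2 fell and 14 did not pass, with a median change of 0.20. Of all named genes 30% were called higher and 18.2% lower, with a median of 0.20. The 2 that fell were Pxn, the focal adhesion adaptor paxillin, from 11.51 and 11.69 to 9.81 and 9.70 (3.59-fold, adjusted p = 0.000720), and Sptbn1, a beta spectrin, from 11.81 and 12.35 to 10.18 and 10.22 (3.67-fold, adjusted p = 0.00236). Actn4, an alpha-actinin that crosslinks actin, rose 2.62-fold (adjusted p = 0.00140) and Ezr, the membrane-actin linker ezrin, 2.23-fold (adjusted p = 0.00205). Neither rise passed in the deposited values (adjusted p = 0.0571 and 0.0995). Lower calls in this list numbered 4 in the deposited values, 3 with 75th percentile scaling and 2 after centring. With each gene read by the mean of all its probes, 9 were called higher and 5 lower. Only 4 genes of the list were called higher in the deposited values, against 18 after centring and 2 without either berberine replicate.

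Of 17 signalling and cell cycle substrates, 8 rose, 3 fell and 6 did not pass, with a median change of 0.44, against 30% higher, 18.2% lower and a median of 0.20 over all named genes. Nfkbia, the inhibitor of NF-kappaB, fell 3.99-fold, from 15.24 and 15.39 to 13.27 and 13.36 (adjusted p = 0.000520), and Jun, an AP-1 factor, fell 3.13-fold (adjusted p = 0.000953). Prkca, a protein kinase C, rose 3.20-fold, from 9.81 and 9.99 to 11.56 and 11.60 (adjusted p = 0.000866). Cdk5r1, the activator of Cdk5 that calpain truncates, rose 2.39-fold (adjusted p = 0.00592), which did not pass when berberine replicate 1 (adjusted p = 0.0603) or 2 (0.0728) was left out. Cdkn1b, which encodes p27, was picked after its value was seen because of the background above. The p27 protein was not measured. Cdkn1b RNA rose from 10.39 and 9.94 to 11.32 and 11.41 (2.30-fold, adjusted p = 0.00675). It did not pass in the deposited values (adjusted p = 0.113) or when berberine replicate 1 (0.0716) or 2 (0.0776) was left out. The number called higher was 3 in the deposited values and 1 without either berberine replicate.

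Lysosomal cysteine proteases (the papain-like cathepsins and legumain) and cystatins, their inhibitors, also went both ways, with 5 of 14 called higher and 6 lower and a median change of 0.047. Over all named genes the shares were 30% and 18.2% and the median 0.20. Lgmn, the asparaginyl protease legumain, fell 28.0-fold, from 13.74 and 13.64 to 9.32 and 8.45 (adjusted p = 0.000488), and cathepsin K (Ctsk) fell 4.16-fold (adjusted p = 0.000569). Cathepsin H (Ctsh) rose 4.02-fold (adjusted p = 0.000520), and cathepsin S (Ctss) rose at least 1.11-fold from under the floor, which did not pass without scaling (adjusted p = 0.0546) or when berberine replicate 1 (0.0638) or 2 (0.0610) was left out. Lower calls numbered 3 under each of the other scalings and without either berberine replicate. Higher calls numbered 1 without scaling, 3 with 75th percentile scaling and 1 without either berberine replicate.

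Among calmodulins, annexins and S100 proteins, which also bind calcium, 1 of 11 rose, 4 fell and 6 did not pass, with a median change of -0.30, against 30% higher, 18.2% lower and a median of 0.20 over all named genes. S100a1 fell 3.05-fold, from 13.81 and 14.01 to 12.32 and 12.27 (adjusted p = 0.00102), S100a13 fell 3.49-fold (adjusted p = 0.00172) and the calmodulin gene Calm3 fell 2.68-fold (adjusted p = 0.00154). Anxa5, a phospholipid-binding annexin, fell 1.69-fold (adjusted p = 0.00893), which did not pass without scaling (adjusted p = 0.139), with 75th percentile scaling (0.359) or when berberine replicate 1 (0.0922) or 2 (0.0761) was left out, and had a change of 0.0062 after centring.

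**Figure D4:**
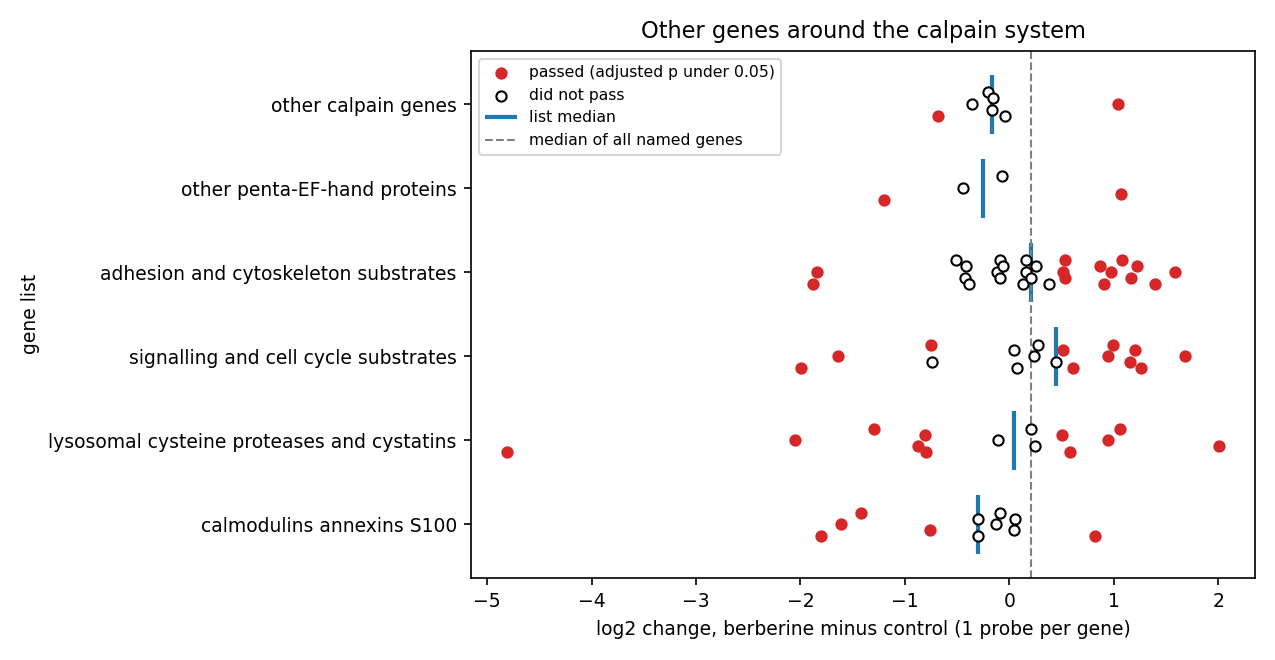
Log2 change (x axis, berberine minus control, 1 probe per gene) of the genes in 6 lists around the calpain system (y axis); filled points passed at an adjusted p under 0.05, open points did not, blue bars are list medians and the dashed line is the median of all named genes, 0.20. The farthest point on the left is Lgmn at -4.81, in the list of lysosomal cysteine proteases, and no list lies to one side of 0.

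The genes whose 4-array profile lay nearest to that of Capns1 were found by Euclidean distance between log2 values, as a description over 4 arrays. They were Idh1, the cytosolic isocitrate dehydrogenase (distance 0.83), the histone gene H2ac23 (0.96), Gstp1, a glutathione transferase (1.06), C1qbp, a mitochondrial matrix protein (1.11), Rabac1, a Rab-binding protein (1.23), and Agt, angiotensinogen (1.24). Their changes ran from -8.08 for Gstp1 to -6.95 for Agt. Of the 6, Agt alone has another probe, which read 15.61 in control and 12.67 with berberine, a change of -2.94. The distance takes the level of a probe into account, so the genes were selected for a bright control reading and a decrease of this size.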

How the data were processed

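Per the labels, Cy5-labelled RNA of 4 cell samples was hybridised to 4 arrays of 1 colour. The authors deposited whole-number probe intensities on a linear scale; how they scanned, background-corrected or scaled the arrays is not stated in what was used here, so the zero point is unknown. After removal of 15 probes with a value of 0 or less, 26408 were quantile-normalized on log2 without a pseudocount and fitted with limma 3.58.1 in R 4.3.3 (lmFit, eBayes, Benjamini-Hochberg over all probes), with 2 residual and 2.89 prior degrees of freedom. With 2 arrays a group, the smallest two-sided p of an exact permutation test is 0.333. Groups come from the sample titles. Of the probes, 20377 had 1 gene symbol and 6046 none; symbols were updated through RefSeq (2126 by an older name), and a gene in a list was represented by its brightest probe. Some listed genes were not analysed here. Members and lists were chosen with earlier results of these data known, and the floor, the probe kinds and the counts of disagreeing probes after values were seen. Named are all member probes, the 4 genes of smallest p in each list, the 6 profiles nearest to Capns1, and Adipoq, Fabp4, Cebpa and Dlk1. Cdkn1b, Pparg, Lpl, Slc2a4, Col1a1, Pdgfrb, Col1a2, Ckm, Acta1, Des and Tnnt3 were added after their values were seen. Same-numbered arrays did not deviate together (r = 0.0035 across probes), so the number was not treated as a pairing. The number of arrays limits precision.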

Additional observations from a re-analysis of the deposited data

How the results depend on the processing

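Capns1 stayed below -7.6 on the log2 scale in every alternative run, with -7.65 after centring and -8.39 to -7.81 when an array was left out. Capn1 and the lower Capn2 probe passed in all of them. Over all probes, 11838 were called (7164 higher, 4674 lower). Without scaling 6687 passed (2396 higher), after centring 14005 (10694 higher), under the replicate block 12760, and 4339 to 10772 when an array was left out (1867 to 6545 higher, 2472 to 4227 lower); for the missing berberine arrays the cause was not tested. A lone array was assumed to vary like the other group, so without a berberine array the residual spread came from the control arrays alone. At probes with a control mean above log2 10, control replicates differed by a median of 0.26 on the log2 scale, and berberine replicates by 0.088. Dimmer probes are not in these medians. Member probes called higher were 2, against 1 in the deposited values, 5 after centring and 0 to 2 when an array was left out, and member probes called lower, Capns1 aside, were 3, against 2 to 3. The replicate block ended the call of Capn5 and brought in the brighter Capn2 probe, and changed no other call of a member. Signs turned for Cast after centring (0.24) and when an array was left out (-0.50 to 0.015, the latter without control replicate 1), and for the dim Capn3 probe PH_mM_0009701 (-0.061 to 0.86, the former without berberine replicate 2). Over the 6 related lists, 27 genes were called higher and 17 lower, against 9 higher without scaling, 42 higher and 11 lower after centring, and 5 to 25 higher and 10 to 18 lower when an array was left out. With each gene read by the mean of all its probes, 25 genes of these lists were called higher and 18 lower. The unknown background limits every reading near the floor.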
